A study of Homo sapiens with 2 samples.

Results

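The chromatin modifying and remodelling genes of PC3 cells were compared between a culture with raised miR-95 and its control. They are the genes whose symbol in the platform annotation names a histone methyltransferase, demethylase, acetyltransferase or deacetylase, a Polycomb, chromobox, bromodomain or PHD finger protein, a remodelling ATPase or its subunit, or an enzyme or reader of DNA methylation. The names alone chose them and no measured value entered the rule, but the rule was set with earlier results of these data known. The choice took 166 probe sets of 164 genes, out of 13864 named genes on the arrays. Of the 164, RefSeq lists 157 as protein coding, 5 as long noncoding RNAs and 2 as pseudogenes, and the last 7 carry a chromatin gene's name without encoding its protein.

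PC3 is an established human prostate cancer line, and both groups were stable derivatives of it grown in medium with 10% fetal bovine serum. The control culture overexpressed a control miR and the other culture overexpressed miR-95. Each group was measured on 1 Affymetrix array of total RNA, so replicate errors, tests and p-values could not be had, and the derivation of each stable line cannot be told apart from the effect of the microRNA. Nothing in the sources used here says whether either line was 1 clone. Of the fixed PC3 markers, the keratins KRT8 and KRT18, vimentin (VIM) and CD44 lay above the middle of both arrays, while KLK3, the prostate-specific antigen gene that PC3 cells are known to express little if at all, lay below it (6.53 control, 6.66 miR-95). No probe set used here named PTPRC, COL1A1 or PECAM1, markers of blood, stromal and endothelial cells.

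DNA in the nucleus is wrapped around histones, and the chemical groups on histone tails and on cytosine mark which stretches are read. Writers add methyl or acetyl groups, erasers take them off, readers bind them, and remodelling ATPases slide, evict or exchange the histones. In prostate cancer the H3K27 methyltransferase EZH2 is the best known of these genes, and its level follows cell proliferation in many tissues. A microRNA lowers transcripts mainly through pairing of its seed, the bases near its 5′ end, with sites in the transcript.

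The mature strands of miR-95 are printed here because the miR-95 culture overexpressed this microRNA, although the level of each strand was not tested. They come from RefSeq (GRCh38.p14), with the seed (bases 2 to 8) in capitals. The hairpin lies on the minus strand of chromosome 4. The DNA complement of the 3p seed is CCGTTGA and that of the 5p seed is TTTATTG. Transcript sequences were not used here, so no chromatin gene was searched for these letters.
hsa-miR-95-3p: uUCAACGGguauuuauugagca
hsa-miR-95-5p: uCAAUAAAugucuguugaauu

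Where 2 values of a gene are given, they are the deposited log2 values of the control and the miR-95 array. A difference is the log2 value of miR-95 minus that of control after both arrays were centred on their median over genes, a step that takes 0.035 off each miR-95 value. Differences from -0.035 up to 0 are therefore 0 or positive in the deposited values. A gene was called bright when the mean of its 2 values reached the median of such means over all genes (7.485), a choice that does not depend on which array is higher. Of the 164 chromatin genes 130 were bright and 34 were dim. As a guide to measurement disagreement, probe sets of the same gene gave differences with a spread of 0.126 in the 67 bright genes with several. This spread holds no variation between cultures. Of the chromatin genes, only CBX6 and HDAC4 had more than 1 probe set. The pair for CBX6 gave -0.135 and 0.085, and the pair for HDAC4 gave 0.045 and -0.035.

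None of the 130 bright chromatin genes was 1.5-fold lower or higher on the miR-95 array, counts of 0 each way. The background was 0.793% of the 6938 bright genes at least 1.5-fold lower and 0.346% at least 1.5-fold higher. At the smaller limit of 1.2-fold, 7 chromatin genes were lower (5.38%), against 8.09% of all bright genes. A further 6 were higher (4.62%), against 5.26% of all bright genes. The median difference was -0.04 in the 130 chromatin genes and -0.035 in all bright genes, and their robust SDs were 0.141 and 0.148. Negative differences made up 63.8% of the chromatin genes and 59.5% of all bright genes, or 50% and 48.0% without centring. The chromatin genes as a set thus lay near the background in count, centre and spread, and what follows describes which members stood at its edges.

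The 7 lower genes were ARID3B, KDM7A, EZH2, TET1, HAT1, PHF20L1 and UHRF1. ARID3B, an AT-rich DNA-binding protein linked to stem cell and tumour gene expression, read 8.83 on the control array and 8.30 on the miR-95 array. Its difference of -0.565 (1.48-fold lower) ranked 60 from the lowest of the 6938 bright genes. KDM7A, a demethylase of the H3K9 and H3K27 marks, read 7.95 and 7.56, a difference of -0.425 (1.34-fold lower, rank 148). Both lay several probe set spreads below 0, but they were picked for their size and that spread holds no variation between cultures. KDM7A also read close to the bright limit of 7.485.

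EZH2, the catalytic subunit of Polycomb repressive complex PRC2, read 10.10 on the control array and 9.79 on the miR-95 array, a difference of -0.345 (1.27-fold lower, rank 272). TET1, which oxidises methylated cytosine as a step in its removal, read 8.45 and 8.15, 1.26-fold lower. HAT1, which acetylates newly made histone H4 before its deposition on DNA, read 10.45 and 10.15, also 1.26-fold lower. The differences of EZH2, TET1 and HAT1 lay within 0.01 of each other, at -0.345, -0.335 and -0.335. PHF20L1, a reader of methylated lysine, read 9.52 and 9.28 (-0.275), and no longer passed 1.2-fold in 4 of the 10 alternative settings. UHRF1, which brings the maintenance methyltransferase to newly copied DNA, read 10.82 and 10.59 (-0.265). It passed the 1.2-fold limit of 0.263 narrowly and no longer did so in 6 of the 10 settings. Those 6 are all the settings that can change a difference, since the others change only which genes count as bright.

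The 6 higher genes were KAT2B, PHF2, MBD5, PRDM8, CBX1 and BPTF. KAT2B (PCAF), a histone acetyltransferase and transcriptional coactivator, read 9.27 on the control array and 9.81 on the miR-95 array. Its difference of 0.505 (1.42-fold higher) ranked 48 from the highest bright gene. PHF2, a demethylase of the same subfamily as KDM7A, read 8.53 and 9.02, 1.37-fold higher (rank 67). MBD5, a protein with a methyl-CpG binding domain, read 7.60 and 8.06, 1.34-fold higher (rank 84). These 3 differences lay over 3 probe set spreads above 0, with the same limits on picked genes and on that spread. MBD5 also read close to the bright limit of 7.485.

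PRDM8, a PR domain repressor studied mostly in neurons, read 9.65 and 10.08, 1.31-fold higher. CBX1, the heterochromatin protein HP1 beta, read 9.68 and 10.09, 1.30-fold higher. BPTF, the largest subunit of the ISWI remodeller NURF, read 11.15 and 11.48, 1.23-fold higher. Genes just outside the limit were PRMT3, KMT5B and NSD2, each at -0.255, and ARID1B at 0.255.

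**Figure D1:**
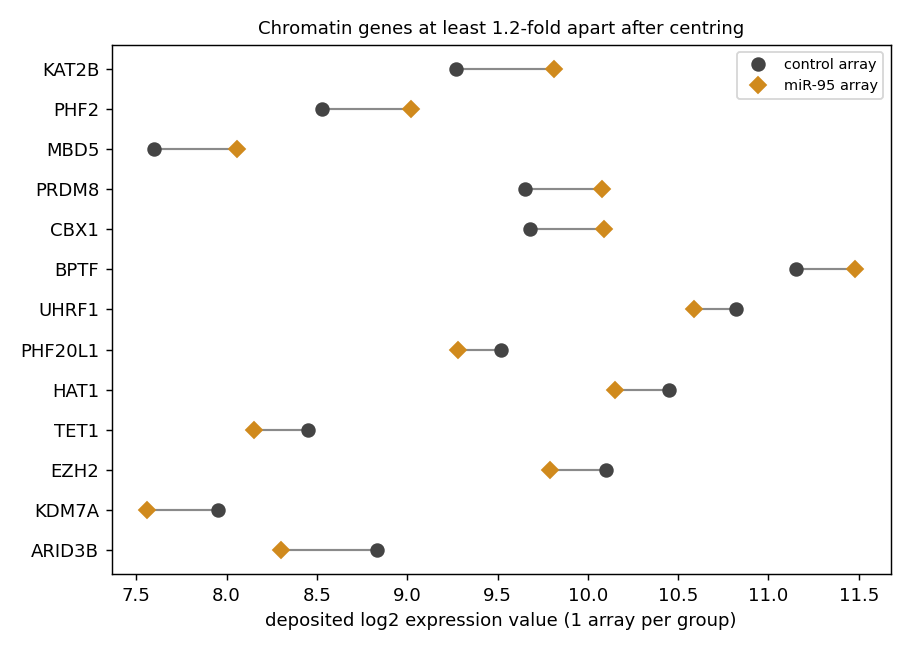
Deposited log2 values of the 13 bright chromatin genes at least 1.2-fold apart after centring, 1 array per group, with the control array as circles and the miR-95 array as diamonds. The 7 lower genes have the diamond to the left, by most in ARID3B (8.83 to 8.30), and the 6 higher genes have it to the right, by most in KAT2B (9.27 to 9.81).

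The class of lysine methyltransferases leaves out EZH1 and EZH2, counted with the Polycomb proteins, and the PRDM proteins. In this class 13 of 19 bright members had negative and 6 positive differences (12 and 7 without centring). Of all bright genes 59.5% were negative (48.0% without centring). Their median was -0.145, against -0.035 for all bright genes, and 0 passed 1.2-fold either way. KMT5B, which adds the further methyl groups of H4K20, read 9.91 on the control array and 9.69 on the miR-95 array. NSD2, which dimethylates H3K36, read 9.56 and 9.34. Its relatives NSD3 (-0.175) and NSD1 (-0.145) were also negative, so all members of the NSD family had the same sign. Of the KMT2 family, which methylates H3K4, KMT2D and KMT2C differed by -0.215 and -0.205 and KMT2B by 0.025, and no probe set used here named KMT2A or KMT2E.

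SETD3, an actin histidine methyltransferase despite its place among histone enzyme names, read 11.46 and 11.28 (-0.215). SETD6 and KMT5A, which makes the monomethyl form of H4K20, each differed by -0.145, SETD5 by -0.125 and KMT5C by -0.025. Among the H3K9 methyltransferases EHMT1 differed by -0.195 and SUV39H2 by -0.185, while EHMT2 (0.045) and SUV39H1 (0.085) were positive. SUV39H1 was the highest bright member of the class, at 9.35 control and 9.47 miR-95. SETD7 and SETD1A each differed by 0.015 and SETD2, which trimethylates H3K36, by 0.055. The one dim member, SETD9, differed by 0.195. The class median ranged from -0.175 to -0.11 over the 10 alternative settings. It was negative in each of them.

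The Polycomb proteins other than EZH2 stayed close to the centre. Of 9 bright members 8 were negative, but 7 of these 8 lay between -0.095 and -0.005, and without centring only EZH2 and ASXL1 were negative. SUZ12, the scaffold of PRC2, read 11.74 and 11.77 (-0.005), and EZH1, the alternative catalytic subunit, read 9.02 and 9.03 (-0.025). PHF19, a PRC2 accessory protein that binds H3K36 methylation, was the positive member at 0.185 (8.83 and 9.05), and its paralog PHF1 differed by -0.005. The chromobox readers of PRC1 differed by -0.025 (CBX6) and -0.015 (CBX7), and CBX2, just below the bright limit, by -0.095. ASXL1 and ASXL2, partners of the H2A deubiquitinase BAP1, differed by -0.095 and -0.025, and ASXL3 was dim at 0.165. No probe set used here named EED or CBX8.

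The arginine methyltransferases lay on both sides, with 2 of 6 bright members negative and a median of 0.02. PRMT3, which methylates a ribosomal protein, was the lowest (9.69 and 9.47, -0.255), followed by PRMT7 (-0.125). PRMT5, the main enzyme of symmetric dimethylation, read 9.78 and 9.85 (0.035), and PRMT2, PRMT6 and PRMT9 differed by 0.005, 0.115 and 0.145. The dim PRMT1 and PRMT8 differed by 0.005 and 0.125. Of 11 PRDM proteins 4 were bright, with PRDM8 (0.395) and PRDM4 (0.155) positive and PRDM10 (-0.135) and PRDM15 (-0.115) negative. The dim PRDM genes ranged from -0.215 (PRDM6) to 0.055 (PRDM12).

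Acetyltransferases had 6 of 9 bright members positive and a median of 0.055, with the range running from HAT1 (-0.335) to KAT2B (0.505). Between these ends the values were small. The coactivators EP300 and CREBBP differed by 0.055 (9.30 and 9.39) and -0.105 (10.57 and 10.50). Of the MYST family, KAT6B read 11.58 and 11.73 (0.115), KAT8 differed by 0.085, KAT5 by 0.055 and KAT7 by -0.035. KAT14 differed by 0.085. KAT2A (GCN5), the paralog of KAT2B, was dim and differed by -0.225 (7.02 and 6.83). No probe set used here named KAT6A, BRPF1 or BRPF3.

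**Figure D2:**
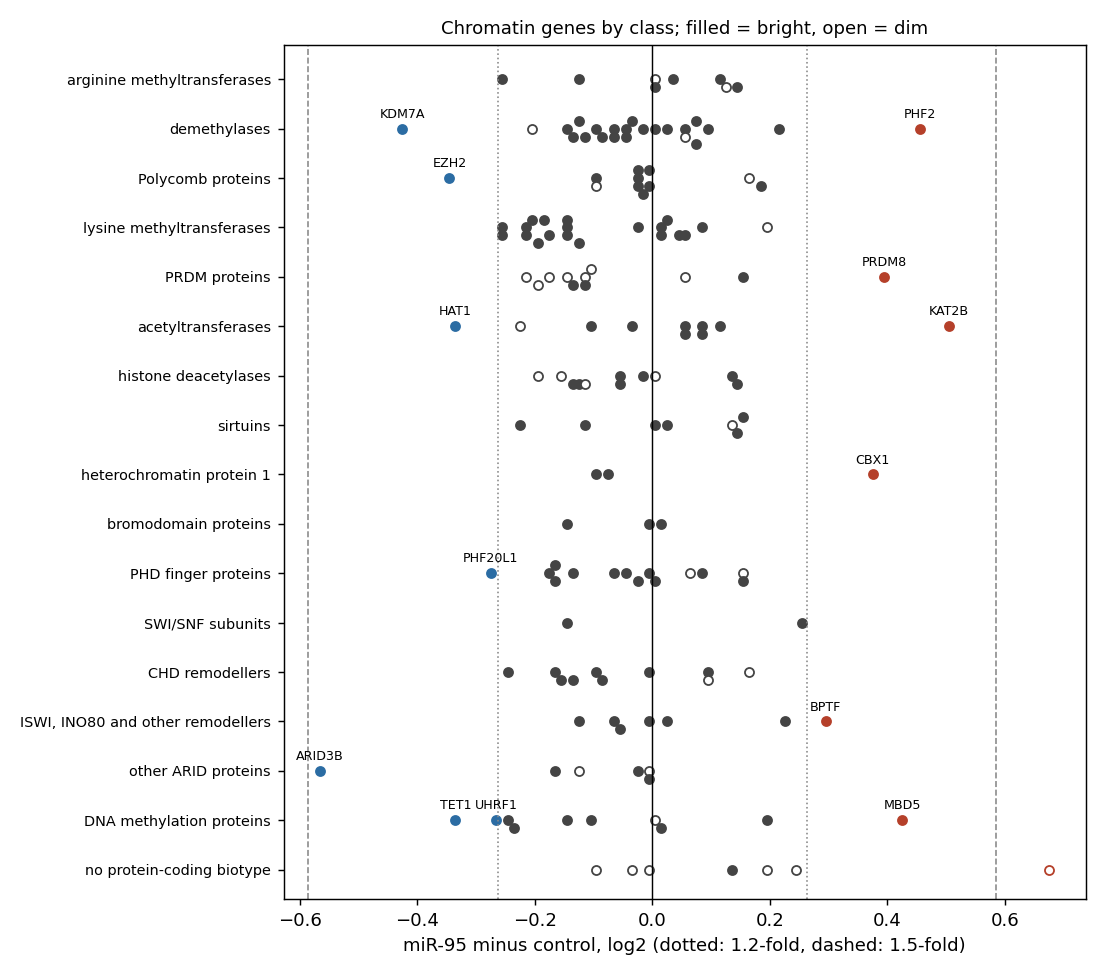
Difference, miR-95 minus control (log2), of each chromatin gene, 1 point per gene, by class, with bright genes filled and dim genes open and lines at 1.2-fold (dotted) and 1.5-fold (dashed). All bright chromatin genes lie inside the 1.5-fold lines, and 13 of them lie past 1.2-fold (named). Of the lysine methyltransferases 13 of 19 bright members lie left of 0 (12 without centring). The share left of 0 is 59.5% in all bright genes (48.0% without centring). The open point past 1.5-fold is a pseudogene, and 1 Y-linked gene is left out.

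Most histone demethylases differed little, with 13 of 21 bright members negative (11 without centring) and a median of -0.045. Past 1.2-fold were only KDM7A (-0.425) and PHF2 (0.455). KDM1A, the flavin-dependent enzyme LSD1, read 11.66 and 11.60 (-0.095), and KDM1B differed by 0.075. In the KDM2 and KDM3 families the values ran from -0.135 (JMJD1C) through -0.115 (KDM2A), -0.045 (KDM3A) and -0.035 (KDM2B) to 0.025 (KDM3B). The H3K27 demethylases KDM6A and KDM6B differed by -0.085 and -0.065. In the KDM4 family the bright members differed by -0.045 (KDM4D), -0.015 (KDM4B) and 0.055 (KDM4A), and the dim KDM4C by -0.205.

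KDM5A, an H3K4 demethylase linked to drug tolerance of tumour cells, was the next highest demethylase after PHF2, at 8.14 control and 8.39 miR-95 (0.215). Its relatives KDM5C and KDM5B differed by 0.095 and -0.065. PHF8 differed by -0.125. JMJD6, JMJD8 and KDM8, whose demethylase activity on histones is disputed or absent, differed by -0.145, 0.005 and 0.075. The dim KDM4E differed by 0.055.

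The histone deacetylases lay between -0.195 and 0.145. Of 7 bright members 5 were negative (4 without centring), and the median was -0.055. HDAC1, a catalytic subunit of the SIN3, NuRD and CoREST complexes, read 11.71 and 11.73 (-0.015), HDAC3, of the NCOR complex, read 9.72 and 9.63 (-0.125), and HDAC8 differed by -0.135. HDAC5 and HDAC7 each differed by -0.055, while HDAC6, a tubulin deacetylase, and HDAC11 differed by 0.145 and 0.135. The dim HDAC9, HDAC2, HDAC10 and HDAC4 differed by -0.195, -0.155, -0.115 and 0.005. Among the NAD-dependent sirtuins, the mitochondrial SIRT3 (8.25 and 8.06, -0.225) and the nuclear SIRT1 (10.91 and 10.83, -0.115) were negative. SIRT5, SIRT6, SIRT2 and SIRT7 differed by 0.005, 0.025, 0.145 and 0.155, and the dim SIRT4 by 0.135.

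Among the readers, the PHD finger proteins had 9 of 12 bright members negative (7 without centring) and a median of -0.055. After PHF20L1 (-0.275) came PHF3 (-0.175), PHF6, mutated in a neurodevelopmental syndrome and in leukaemia (-0.165), PHF7 (-0.165) and PHF14 (-0.135). PHF5A, a splicing factor of the U2 particle, differed by -0.065. PHF21A, PHF20 and PHF13 lay between -0.045 and -0.005, and PHF12, PHF10 and PHF23 between 0.005 and 0.155. The dim PHF24 and PHF21B differed by 0.065 and 0.155. Of the HP1 proteins, CBX3 (9.45 and 9.39, -0.095) and CBX5 (9.32 and 9.28, -0.075) did not share the direction of CBX1. The bromodomain genes BRD7, BRD3 and BRD8 differed by -0.145, -0.005 and 0.015, and no probe set used here named BRD2.

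ARID3A, the paralog of ARID3B, read 8.40 and 8.27 (-0.165), and the dim ARID3C differed by -0.125, so the ARID3 genes had 1 sign. ARID5B differed by -0.025 and ARID5A by -0.005, and the dim ARID4B by -0.005.

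Of the CHD remodelling ATPases 7 of 8 bright members were negative (6 without centring), with a median of -0.115 and none past 1.2-fold. CHD2 was the lowest (8.07 and 7.86, -0.245), followed by CHD6 (-0.165), CHD8 (-0.155) and CHD1, which binds H3K4 methylation (9.88 and 9.78, -0.135). CHD9 and CHD1L, a remodeller driven by poly-ADP-ribose, differed by -0.095 and -0.085. The NuRD ATPases were the 2 bright members nearest or above 0, with CHD4 at -0.005 (10.79 and 10.82) and CHD3 at 0.095 (9.27 and 9.40). The dim CHD7 and CHD5 differed by 0.095 and 0.165.

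The SWI/SNF complex was represented by ARID1A and ARID1B, its mutually exclusive DNA-binding subunits, since no probe set used here carried a SMARC symbol. ARID1A read 9.28 and 9.17 (-0.145) and ARID1B read 8.73 and 9.02 (0.255). The 5 INO80 subunits differed by -0.125 (INO80C), -0.065 (the ATPase INO80), -0.055 (INO80D), 0.025 (INO80E) and 0.225 (INO80B). ATRX, which works with DAXX in placing histone H3.3, differed by -0.005.

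The DNA methylation genes had 6 of 9 bright members negative and a median of -0.145, the same as that of the lysine methyltransferases. TET2 (8.15 and 7.94, -0.245) lay close to TET1. The maintenance methyltransferase DNMT1 read 11.50 and 11.39 (-0.145), and UHRF1, its recruiting partner, was also negative. The de novo methyltransferases differed in sign, with DNMT3B at 7.61 and 7.41 (-0.235) and DNMT3A at 7.86 and 8.09 (0.195). Both read close to the bright limit of 7.485. Of the genes named for a methyl-CpG binding domain, MBD2 and MBD1 differed by -0.105 and 0.015 and MBD5 by 0.425. The dim DNMT3L differed by 0.005. The class median stayed between -0.145 and -0.095 over the 10 alternative settings.

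A contrast between paralogs on the same pair of arrays does not depend on centring. The pairs named here were chosen after their values were seen and were not set against pairs of unrelated genes, so their gaps are values only. The widest of these gaps was 0.88, between PHF2 and KDM7A, which share the JmjC and PHD fold of one demethylase subfamily. KAT2B and KAT2A lay 0.73 apart, although KAT2A was dim. PHF2 and PHF8 lay 0.58 apart, CBX1 and CBX3 0.47, DNMT3A and DNMT3B 0.43, ARID1B and ARID1A 0.40 and EZH1 and EZH2 0.32. At the other end KMT2C and KMT2D lay 0.01 apart and KDM6A and KDM6B 0.02.

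Chromatin genes are long, and difference and gene span were related across the arrays. The median RefSeq span was 54.2 kb in the bright chromatin genes and 29.5 kb in all bright genes, and 53 of the 130 (40.8%) lay in the longest of 4 equal span groups of bright genes. In that group (above 69.6 kb) the median difference was -0.105 in the chromatin genes and -0.075 in all genes. In the shortest group (below 11.99 kb) the medians were 0.025 in 16 chromatin genes and 0.015 in all. Spearman's rho between span and difference was -0.292 across the 130 chromatin genes and -0.236 across the 6938 bright genes, which share 1 pair of arrays and are not independent replicates. The median span was 99.0 kb in the bright CHD genes, 73.1 kb in the DNA methylation genes and 58.8 kb in the lysine methyltransferases. The part of span in their negative medians was not tested by itself. Subtracting a smooth trend on span also re-centred the genes, and the median of all bright genes moved from -0.035 to -0.004. The medians moved from -0.145 to -0.119 in the lysine methyltransferases and from -0.145 to -0.095 in the DNA methylation genes. That of the CHD genes moved from -0.115 to -0.058.

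**Figure D3:**
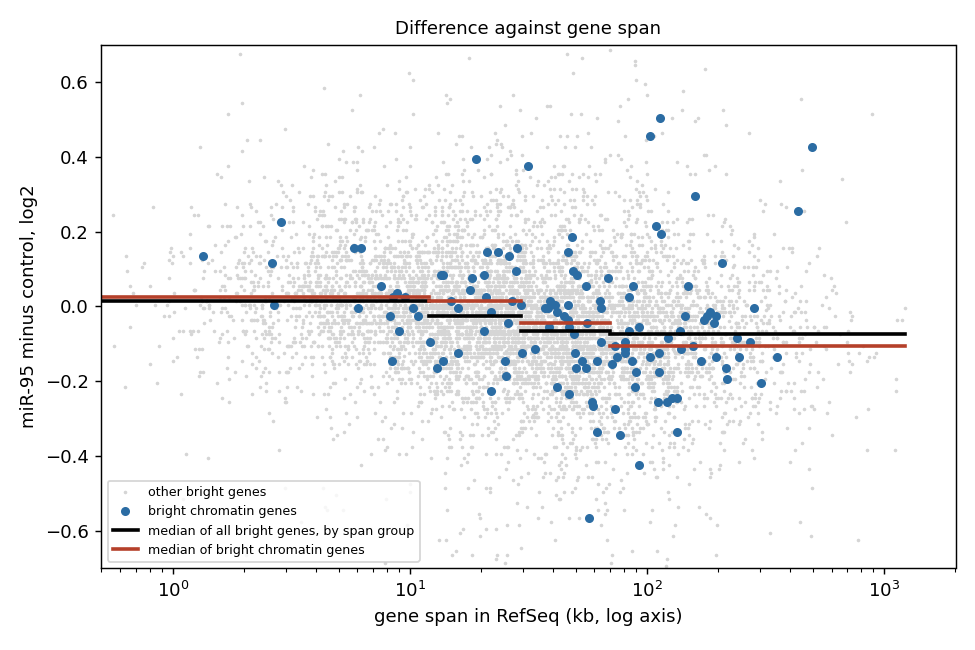
Difference, miR-95 minus control (log2), against RefSeq gene span (kb, log axis) for bright genes, with the chromatin genes in blue, other genes in grey, and the medians of each of 4 span groups as black (all bright genes) and red (chromatin genes) lines. Both medians decline from the shortest group (0.015 and 0.025) to the longest (-0.075 and -0.105), and genes beyond 0.7 either way or under 0.5 kb are not shown.

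Of 14 chromatin genes listed for their part in S phase, when DNA and its chromatin are copied, 11 were measured and all were bright. The list was drawn up with earlier results of these arrays known, among them the lower values of DNA replication genes, so it is not independent of them. The differences were negative in 9 and positive in 2 (8 and 3 without centring), with a median of -0.145, against -0.035 for all bright genes. EZH2, HAT1 and UHRF1 were past 1.2-fold lower, 3 of 11 where 8.09% of all bright genes were. The call of UHRF1 was lost in 6 of the 10 settings, which are all those that can change a difference. SUV39H2, KMT5A and DNMT1 lay between -0.185 and -0.145, and CBX3, CBX5 and SUZ12 between -0.095 and -0.005. CBX1 (0.375) and SUV39H1 (0.085) were positive.

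Promoters of this list were searched for the E2F motif, since E2F factors drive many S phase genes. The letters were TTTCCCGC, TTTGGCGC, TTTCGCGC and TTTGCCGC on both strands, in a window of 300 bases from 250 before to 50 after the RefSeq start (GRCh38.p14). A match was found in 5 of the 11 (DNMT1, EZH2, UHRF1, CBX3 and SUZ12), in 11 of 115 bright chromatin genes with a promoter entry (9.57%), in 340 of 5741 bright genes with an entry (5.92%) and in 3.33% of all 27305 promoters. The motifs are rich in G and C, and these sets differ in base composition. Median GC was 68.3% in the list, 68.7% in bright chromatin genes, 66% in bright genes and 58.3% in all promoters. The part of base composition in the match shares was not tested. The 11 bright chromatin genes with a match had 9 negative differences (6 if not centred) and a median of -0.095. The 104 with no match had 63 negative (49 if not centred) and a median of -0.025. Over all bright genes, 226 of 340 with a match were negative (186 if not centred), with a median of -0.065. Of the 5401 with no match 3234 were negative (2614 if not centred), with a median of -0.035. A match is a run of letters and shows no binding. The members of the list without a match were HAT1 (-0.335), SUV39H2 (-0.185), KMT5A (-0.145), CBX5 (-0.075), SUV39H1 (0.085) and CBX1 (0.375). Of the 5 with a match, SUZ12 differed by -0.005 and CBX3 by -0.095. A part of E2F in any of these values was not tested. The promoters of EZH2, UHRF1 and DNMT1 are printed as the genes of the list with the motif and the lowest differences. Beside them is that of CBX1, the highest member of the list, which has no match. They were chosen after the values were seen. Each reads 5′ to 3′ on the strand of its gene, with the motif in capitals.
EZH2 (chr7:148884242-148884541, minus strand): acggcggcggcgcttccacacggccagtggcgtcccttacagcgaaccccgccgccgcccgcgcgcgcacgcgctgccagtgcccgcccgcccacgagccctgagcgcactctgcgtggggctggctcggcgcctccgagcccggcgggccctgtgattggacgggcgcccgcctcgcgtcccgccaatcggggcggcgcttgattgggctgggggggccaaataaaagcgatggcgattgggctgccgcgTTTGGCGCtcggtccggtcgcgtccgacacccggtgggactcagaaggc
UHRF1 (chr19:4909251-4909550, plus strand): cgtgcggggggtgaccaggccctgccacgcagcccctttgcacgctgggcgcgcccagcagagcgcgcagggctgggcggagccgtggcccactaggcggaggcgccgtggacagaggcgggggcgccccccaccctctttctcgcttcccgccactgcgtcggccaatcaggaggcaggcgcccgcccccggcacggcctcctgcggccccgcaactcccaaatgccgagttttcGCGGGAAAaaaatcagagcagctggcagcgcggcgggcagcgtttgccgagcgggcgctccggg
DNMT1 (chr19:10194904-10195203, minus strand): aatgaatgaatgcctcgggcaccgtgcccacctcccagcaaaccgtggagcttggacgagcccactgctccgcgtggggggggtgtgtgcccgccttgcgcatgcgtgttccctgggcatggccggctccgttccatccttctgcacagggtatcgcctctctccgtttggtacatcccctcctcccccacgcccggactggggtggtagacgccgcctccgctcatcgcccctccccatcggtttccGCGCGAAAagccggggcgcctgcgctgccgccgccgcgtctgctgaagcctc
CBX1 (chr17:48101137-48101436, minus strand): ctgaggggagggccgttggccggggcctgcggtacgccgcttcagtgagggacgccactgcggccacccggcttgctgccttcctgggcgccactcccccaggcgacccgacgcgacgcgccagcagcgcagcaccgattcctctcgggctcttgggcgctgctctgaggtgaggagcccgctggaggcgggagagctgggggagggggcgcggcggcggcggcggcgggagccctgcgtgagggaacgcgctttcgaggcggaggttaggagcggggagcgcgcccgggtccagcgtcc
The match begins at position 2 after the start in EZH2 and at positions -14 and -2 in UHRF1 and DNMT1, counting the start as 1 with no position 0.

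The chromosomal neighbours of the 13 genes past 1.2-fold were also read. For each gene the median difference of the nearest measured genes, bright or dim and up to 5 on each side, was taken without other chromatin genes. For 12 of the 13 genes these medians lay between -0.12 (around KAT2B) and 0.055 (around HAT1). Around ARID3B, the lowest gene, the median was 0.18. That is opposite in sign to its own difference, as were the medians around KAT2B and HAT1 to theirs. Medians of such size also lay around chromatin genes not past 1.2-fold, such as KDM5A (-0.275) and PHF3 (-0.21).

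Genes that work in the same complexes but carry other symbols were described beside the set. Of 111 such partner genes measured 107 were bright, with 64 negative and 43 positive differences (56 and 51 without centring) and a median of -0.055. Among them 10 (of 107) were at least 1.2-fold lower and 7 at least 1.2-fold higher, against 8.09% and 5.26% of all bright genes. The 1 gene past 1.5-fold was TDG, the glycosylase that excises the cytosine forms made by TET enzymes, at 9.59 control and 8.69 miR-95 (1.91-fold lower), a value already known when the list was drawn up. The deacetylase complex partners included SUDS3, of SIN3, at 9.76 and 9.29 (-0.505) and GATAD2A, of NuRD, at 10.04 and 9.58 (-0.495), against RCOR2, of CoREST, at 0.355 and SIN3A at 0.155. The median of their 12 bright members was -0.035.

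Of the 16 bright Polycomb partners 11 were negative (median -0.105). RBBP4, a histone-binding subunit of PRC2, NuRD and the CAF-1 chaperone, read 11.12 and 10.66 (-0.495), and the PRC2 accessory protein MTF2 differed by -0.275. PCGF6, of a variant PRC1, differed by 0.355 and PCGF2 by 0.205. The COMPASS partners of the KMT2 enzymes had 7 of 10 positive (median 0.07), from PAXIP1 and PSIP1 at -0.215 to MEN1 at 0.145 and CXXC1 at 0.235. The shared core subunits WDR5 and RBBP5 differed by 0.075 and 0.045 and DPY30 by -0.145.

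Among the histone chaperones 9 of 12 were negative (8 without centring), with a median of -0.09. NASP, which stores newly made H3 and H4, read 8.02 and 7.65 (-0.405) and HIRA differed by -0.185, while ASF1A, which passes these histones on, read 10.81 and 11.17 (0.325) and DAXX differed by 0.135. The acetyltransferase partners had a median of -0.04 over 22 genes, with TADA2A and JADE1 at -0.325, TADA2B at 0.265 and RUVBL2 and MSL2 at 0.205. The remodeller partners had a median of -0.015 over 16 genes, from BCL7B (-0.325) and EP400 (-0.215) to BCL7C and MCRS1 (0.145) and SS18L1 (0.165). The enzymes and readers named otherwise had a median of -0.065 over 19 genes. Besides TDG they held SMYD3 at -0.295, and on the higher side USP22 (11.06 and 11.45), a histone deubiquitinase, at 0.355, CARM1, an arginine methyltransferase that works with p300, at 0.345 and MBD4, a glycosylase with a methyl-CpG binding domain, at 0.315.

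**Figure D4:**
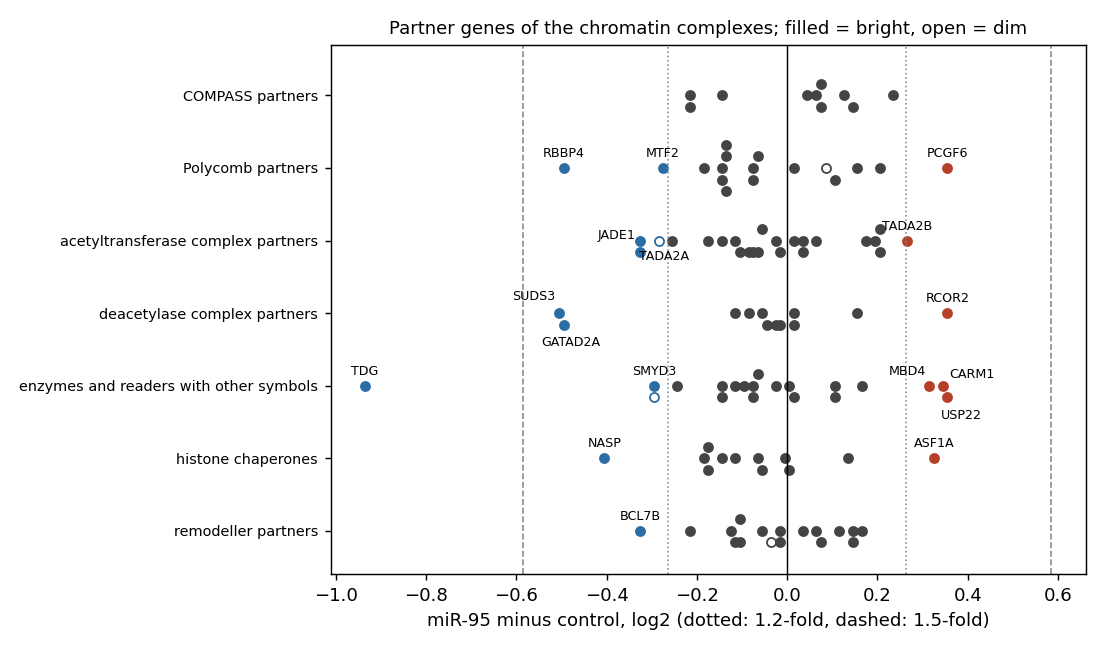
Difference, miR-95 minus control (log2), of each partner gene, 1 point per gene, by list, with bright genes filled and dim genes open and lines at 1.2-fold (dotted) and 1.5-fold (dashed). The median lies lowest in the Polycomb partners (-0.105) and highest in the COMPASS partners (0.07), and TDG (-0.935) is the 1 gene past 1.5-fold.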

How the data were processed

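RNA from 2 PC3 cultures was measured on 1 Affymetrix array each. The authors deposited log2 expression values for 23641 probe sets, made with Affymetrix Expression Console 1.2 per the submitters' processing notes; the scale was read from the values. Summarisation, background correction, scaling between arrays and genome build: not given in the sources used here. Arrays scaled to 1 distribution would hide a change common to all transcripts.

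The platform table pairs 14088 probe sets (59.6%) with 1 gene and 0 with several, and the other 9553 were not used. All 14088 matched RefSeq GRCh38.p14, used for names, span, gene order and sequences. Probe sets of a gene were averaged, and the median over genes was subtracted from each array (7.46 for control, 7.495 for miR-95). With 1 array per group no test was made, and the number of arrays limits precision. Genes are listed at 1.5-fold and 1.2-fold (0.585 and 0.263 on the log2 scale). Members, classes and lists were chosen with earlier results of these data known. Any member could be named, with array values for those at class edges or past a limit; the 1 Y-linked member is counted but not named, and some items are not reported here. The paralog pairs, the motif search and the neighbouring genes were added after the values were seen. Promoter entries matched 138 of the 164 genes. Alternatives were other centrings (none, loess with span 0.4, quantile), other limits on brightness, the brightest probe set, an offset of 16 and a loess on gene span. Python 3.11.15, pandas 2.3.3 and statsmodels 0.14.6 were used, and the steps were tested on simulated data.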

Additional observations from a re-analysis of the deposited data

How the results depend on the processing

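Each of the 13 differences past 1.2-fold kept its sign and moved by less than the probe set spread of 0.126 under all 10 alternatives. The alternatives that change only the limit on brightness could not move a difference. Genes picked for large differences could hardly change sign. The count past 1.5-fold lower stayed at 0, and that past 1.5-fold higher became 1 with no filter on dim genes, through the pseudogene BRD7P3. The count past 1.2-fold lower was 4 with bright genes taken from the 75th percentile, where fewer genes are counted, and between 5 and 7 in the others. The count past 1.2-fold higher ran from 4 to 8. With bright genes from the 75th percentile, ARID3B, KDM7A, TET1, MBD5 and PHF2 were no longer bright and so were not counted. UHRF1 and PHF20L1 no longer passed 1.2-fold without centring, after either loess and after quantile normalization, and UHRF1 also with the brightest probe sets and with the offset. ARID1B passed 1.2-fold higher without centring, after either loess and after quantile normalization, and KDM5A after the loess on span. The excess of negative signs depended on the centring: 63.8% of the bright chromatin genes were negative with it and 50% without (59.5% and 48.0% of all bright genes). The member median ran from -0.075 to -0.005. Of 160 class medians 154 moved by less than 0.126; the other 6, 5 of them with bright genes from the 75th percentile, belong to classes with 2 to 6 bright members. No paired analysis was possible because each group has 1 array and the result comes from no test.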

Other observations

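Noncoding members were mostly dim. JMJD1C-AS1, an antisense transcript of JMJD1C and the only bright one, read 8.47 on the control array and 8.64 on the miR-95 array (0.135), where JMJD1C itself differed by -0.135. KDM7A-DT, a divergent transcript beside KDM7A, read 6.12 and 6.40 (0.245), where KDM7A differed by -0.425. PRDM10-DT and PRDM16-DT differed by -0.035 and -0.005, beside -0.135 for PRDM10 and -0.195 for PRDM16. KMT2E-AS1 differed by -0.095. The pseudogenes BRD7P3 (3.32 and 4.03, 0.675) and CBX3P2 (5.70 and 5.93, 0.195) read far below the bright limit, and signal shared with their parent genes was not tested.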
